A study of Mus musculus with 30 samples.

Results

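Hearts of mice with a cardiac knockout of Cpt1a were compared with hearts of floxed control mice, both after 8 weeks of pressure overload. The members are the 8 libraries whose labels give these 2 groups, of 30 in the series: 4 libraries of overloaded knockouts (KO_TAC) and 4 of overloaded controls (FF_TAC). Pressure overload was made by transverse aortic constriction (TAC), in which a clip narrows the aorta so that the left ventricle pumps against a higher load. The labels name the KO mice as CPT1a fl/fl with a cardiac specific knockout and the FF mice as CPT1a fl/fl, and the series description speaks of a cardiac-specific knockdown. The Cre driver, the flanked exons, the strain, the sex and the age of the mice are not given in the sources used here. Clips of 0.016 or 0.018 inch were used, and which heart had which is not given either. The titles of the KO_TAC libraries hold both TAC and sham, while their genotype, treatment and count columns give knockout and TAC, which were followed. The same floxed cohort has 4 sham-operated knockouts (KO_sham) and 4 sham-operated controls (FF_sham), which enter here to estimate the spread and the interaction of knockout and overload.

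Cpt1a encodes carnitine palmitoyltransferase 1A, which joins long-chain fatty acids to carnitine at the outer mitochondrial membrane. The acyl-carnitines are carried inward by Slc25a20, turned back into acyl-CoA by Cpt2 and broken down by beta-oxidation. The adult heart draws most of its energy from fatty acids, with Cpt1b as its main isoform of this enzyme, while Cpt1a is the isoform of liver and of the fetal heart. In the overloaded heart, fetal genes such as natriuretic peptides return, fatty acid oxidation falls and matrix builds up. The series description gives the role of Cpt1a in the stressed heart as the question of the study.

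RNA was sequenced as poly(A)-selected, directional libraries, and levels are given as counts per 1000000 counts (CPM) after trimmed-mean (TMM) scaling. The 8 libraries held 14839758 to 18473879 counts. Haemoglobin levels are an exception and are CPM without TMM scaling. Haemoglobin transcripts split the controls: FF_TAC 1 and 4 held 502 and 534 CPM, FF_TAC 2 and 3 held 3.41 and 1.74, and KO_TAC 1 to 4 held 51.1, 12.9, 4.14 and 3.89. All 4 knockout libraries and 2 of the 4 control libraries are therefore below 100 CPM and are called low-haemoglobin libraries here. KO_TAC 1 also stood apart by atrial and lung transcripts, with Myl7, an atrial myosin light chain, at 3131 CPM against 0.119 to 0.75 in KO_TAC 2 to 4, and Scgb1a1, a secretory protein of airway cells, at 599 CPM against at most 0.30 in KO_TAC 2 to 4. FF_TAC 1 held 74.2 CPM of Myl7. The sham libraries were uneven too: FF_sham 2, FF_sham 3, KO_sham 2 and KO_sham 4 held 1105, 36.8, 601 and 393 CPM of Myl7. KO_sham 2 was also a low-haemoglobin library, at 1.40 CPM, and held 610 CPM of Fos, an immediate early gene. The sham comparison, the interaction, the shared spread and the haemoglobin term rest on these libraries as well. In KO_TAC 2 and 3 the level moved with exon length: against the FF_TAC mean, genes of up to 1000 exonic bases had a median log2 ratio of 0.72 and 0.36, and genes over 8000 bases one of -0.19 and -0.16. KO_TAC 1 moved the other way, with -0.39 for the short genes and 0.0057 for the long ones. FF_TAC 2 moved as KO_TAC 2 and 3 did, with 0.28 and -0.10. Results are therefore given beside fits with a haemoglobin term (1 value for libraries below 100 CPM and 1 for the rest), within the low-haemoglobin libraries alone (4 against 2), without KO_TAC 1, and with the length trend removed. Cardiomyocyte markers marked the tissue as heart in every library, with a summed level of 40859 to 59981 CPM in KO_TAC and 49286 to 56373 in FF_TAC over 7 genes. These are bulk samples, so fewer cells of a type and less RNA per cell cannot be told apart. The labels do not say how the 4 libraries of a group relate beyond their numbers, so p-values measure the spread between these samples.

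The targeted gene itself was lower in the overloaded knockouts, but not in all pairs of libraries. Cpt1a (chromosome 19, 3322334 to 3385733, GRCm38) stood at 48.8, 20.3, 16.2 and 34 CPM in FF_TAC 1 to 4 and at 19.5, 11.9, 14.1 and 11.1 CPM in KO_TAC 1 to 4. KO_TAC 1 lay above FF_TAC 3, so the groups overlapped, and the low-haemoglobin controls were the lowest of their group. The log2 fold change was -1.07 ± 0.33 (adjusted p = 0.0405), where ± gives the standard error here and for all log2 fold changes below, and it was -1.0 with the haemoglobin term (adjusted p = 0.142) and -0.39 within the low-haemoglobin libraries (adjusted p = 0.678). Counts cover the whole gene, so transcripts that lack only the flanked exons would still be counted, as would Cpt1a of cells other than cardiomyocytes. Leaving out 1 library ended the call: its adjusted p was up to 0.147 without FF_TAC 1, FF_TAC 4, KO_TAC 2, KO_TAC 3 or KO_TAC 4. In the sham hearts the knockouts had 28.2 ± 12.1 and the controls 45 ± 6.13 CPM (mean ± SD, n = 4), a log2 fold change of -0.68 with adjusted p = 0.95.

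**Figure D1:**
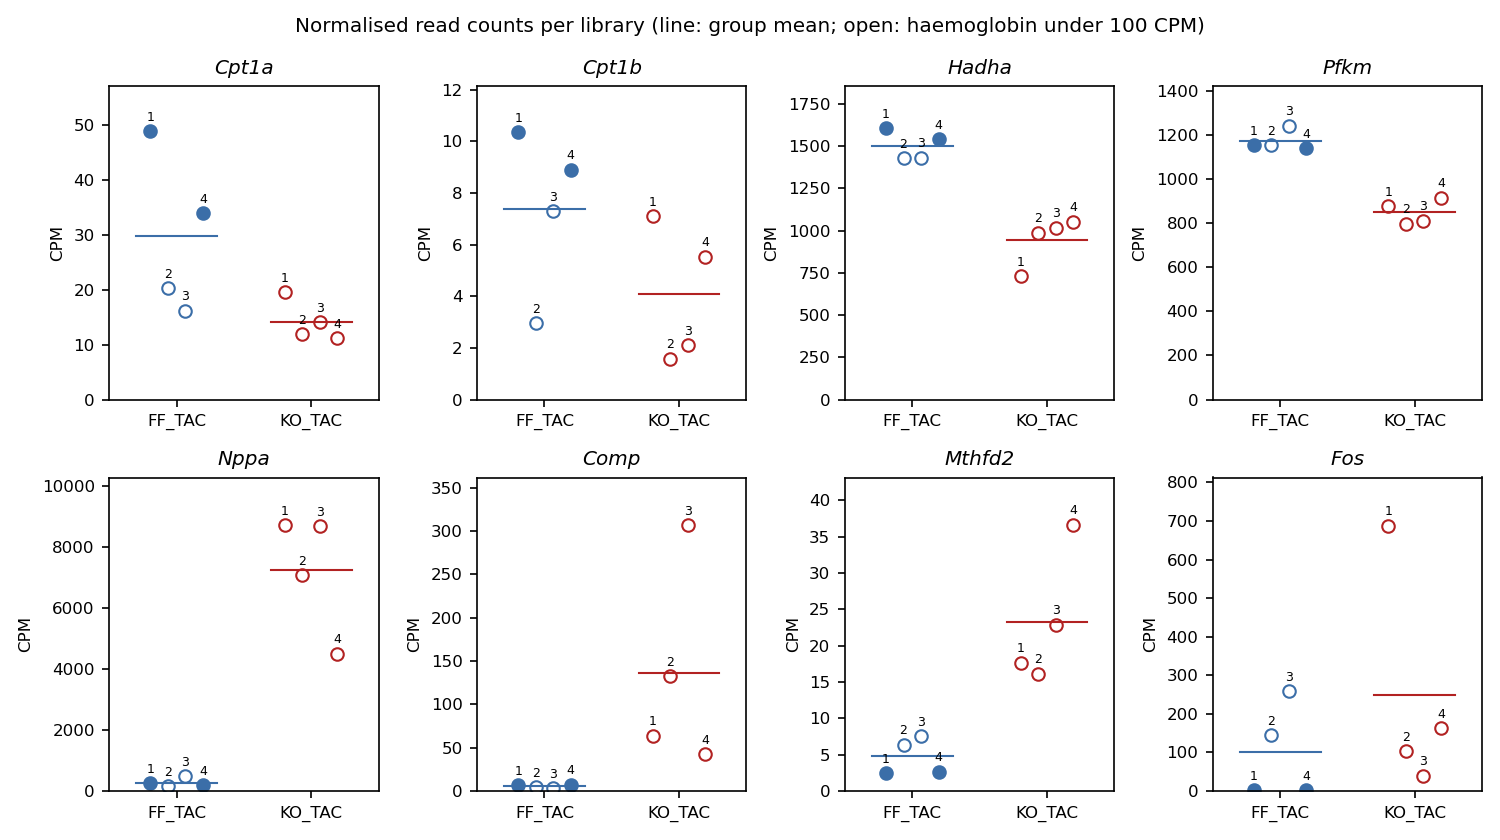
Normalised read counts (CPM, vertical axes from 0) of 8 genes in each library of FF_TAC (blue) and KO_TAC (red), numbered by replicate; lines are group means and open symbols are libraries with haemoglobin under 100 CPM. Cpt1a overlaps between the groups, Hadha and Pfkm are lower and Nppa, Comp and Mthfd2 higher in every KO_TAC library than in any FF_TAC library, and Fos is low only in FF_TAC 1 and 4.

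Across all genes the overloaded knockouts differed widely from the overloaded controls. Of 15596 genes that entered edgeR's quasi-likelihood test, 2235 passed at 0.05 after Benjamini-Hochberg adjustment and are called changed (14.3%), 1175 higher (7.53%) and 1060 lower (6.8%) in KO_TAC. These percentages are the background against which the members of each gene list are read, and the median log2 fold change over all genes tested was 0.036. With the haemoglobin term 1127 genes were called (7.23%, with 3.91% higher and 3.31% lower). Without KO_TAC 1, 12.6% were higher and 11.7% lower (24.3% in all), with the length trend removed 8.03% and 7.51% (15.5%), and with KO_TAC 1 and 4 alone against the controls 3.84% and 2.8% (6.64%). With only the 8 compared libraries in the fit, which takes the spread from them alone, they were 2.25% and 1.54% (3.79%), and without the low-haemoglobin controls 11.3% and 10.9% (22.2%). Within the low-haemoglobin libraries edgeR called 0, with 1620 at an unadjusted p under 0.05, of 15311 tested. Without KO_TAC 1 the count was 3845, without KO_TAC 3 1204, without FF_TAC 1 1375 and without FF_TAC 4 1124. Between the sham hearts edgeR called 0 genes for the knockout, with 814 at an unadjusted p under 0.05, DESeq2 called 14 (0.618% of those it adjusted) and limma voom with sample weights 30 (0.192%). Summed levels of some gene lists still differed without overlap between the sham groups, as given below.

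The 15 called genes with the largest rise, among those at 5 CPM or more in KO_TAC with no overlap of the groups, included Chil1, Nppa, Comp, Gm13054, Spp1, Sprr1a, Serpina3n, Acod1, Timp1, Krt18, Olr1, Clec4d, Lgals3 and Il1rn. Nppa, which encodes atrial natriuretic peptide, stood at 256, 150.2, 489.8 and 197 CPM in FF_TAC and 8704, 7078, 8682 and 4495 in KO_TAC, a log2 fold change of 4.73 ± 1.17 (adjusted p = 0.015). All 4 knockout libraries were above the highest control, which the rule requires of every rise it names. The atrial marker Myl7 was below 1 CPM in KO_TAC 2 to 4, and the part of atrial tissue in Nppa was not tested. Gm13054 is a gene model on the strand opposite Nppa, and neither can be called certain since the strand setting of the counting is not given. Its call was lost when single libraries were left out: its adjusted p was up to 0.13 without FF_TAC 1, FF_TAC 2, FF_TAC 3, FF_TAC 4, KO_TAC 1 or KO_TAC 3, with a log2 fold change of 2.76 without KO_TAC 1. The call of Nppa was lost without FF_TAC 4 (adjusted p up to 0.0561), with a log2 fold change of 4.6, and with the haemoglobin term (log2 fold change 3.97, adjusted p = 0.0839).

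Chil1, a chitinase-like protein that myeloid and injured cells secrete, had 2 counts in the 4 FF_TAC libraries together and 355 in KO_TAC. The ratio was 179 (95% counting interval 49.3 to 1487, exact, counting error only), and KO_TAC 4 was the lowest knockout at 0.654 CPM. Serpina3n, a protease inhibitor of the acute phase response, rose from 21.3, 7.59, 8.52 and 7.95 CPM in FF_TAC to 44.9, 320.5, 403 and 57.5 in KO_TAC (log2 fold change 4.18 ± 0.71, adjusted p = 0.00219). It was highest in KO_TAC 2 and 3. Sprr1a, a small protein induced in stressed cardiomyocytes, had a log2 fold change of 4.25 ± 1.0 (adjusted p = 0.0116), and Krt18, a keratin of simple epithelia, one of 3.69 ± 0.6 (adjusted p = 0.00175). Lgals3, galectin 3 of macrophages and fibrotic tissue, stood at 5.7, 6.63, 5.33 and 2.43 CPM in FF_TAC and 72.1, 57, 87.5 and 20.7 in KO_TAC (log2 fold change 3.57 ± 0.57, adjusted p = 0.00167). Clec4d, a lectin receptor of myeloid cells, and Il1rn, the antagonist of the interleukin 1 receptor, had log2 fold changes of 3.58 and 3.51. Olr1, a scavenger receptor for oxidised lipoprotein, was called (log2 fold change 3.62 ± 1.01, adjusted p = 0.0273), but not without FF_TAC 1, FF_TAC 4 or KO_TAC 3 (adjusted p up to 0.0772).

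By the same rule the largest falls were Cyp26b1, Aplnr, Gm34302, Pfkfb1, Mme, Aqp7, Scn4a, Lgi1, Lrrc15, Tmem150c, Efnb3, Scn4b, Gpr22, Fbp2 and Cacna1s. Aplnr, the receptor for apelin in endothelium and cardiomyocytes, stood at 37.3, 12.7, 8.95 and 61.5 CPM in FF_TAC and 4.31, 1.73, 5.67 and 3.39 in KO_TAC (log2 fold change -2.98 ± 0.56, adjusted p = 0.00361). The low-haemoglobin controls were between the other controls and the knockouts, and the log2 fold change was -1.61 with the haemoglobin term (adjusted p = 0.00843). Aqp7, a channel for glycerol, followed the same order at 32.1, 8.07, 6.5 and 28.2 CPM in FF_TAC and 6.08, 3.45, 2.5 and 2.62 in KO_TAC (log2 fold change -2.34 ± 0.52, adjusted p = 0.00839; -1.05 with the haemoglobin term). Gm34302, a gene model with no known role, moved as far within the low-haemoglobin libraries (-2.81) as over all (log2 fold change -2.73 ± 0.35, adjusted p = 4.88e-04), at 13.7, 20.7, 15.3 and 19.5 CPM in FF_TAC and 1.57, 3.75, 2.39 and 2.8 in KO_TAC.

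Efnb3, an ephrin ligand, fell from 150.3, 80.8, 60.5 and 71.3 CPM in FF_TAC to 23.2, 16.4, 18.6 and 28.5 in KO_TAC (log2 fold change -2.06 ± 0.29, adjusted p = 8.39e-04). Gpr22, an orphan receptor of the heart, fell from 28.6, 11.9, 22.6 and 30.6 CPM in FF_TAC to 4.26, 6.75, 7.22 and 5.41 in KO_TAC (log2 fold change -1.99 ± 0.27, adjusted p = 7.65e-04). Scn4a and Scn4b, a pore-forming and a beta subunit of voltage-gated sodium channels, had log2 fold changes of -2.27 ± 0.45 (adjusted p = 0.00492) and -2.02 ± 0.45 (adjusted p = 0.00904). Mme, the peptidase neprilysin that degrades natriuretic peptides, stood at 12.3, 5.3, 6.44 and 10.8 CPM in FF_TAC and 3.77, 0.975, 0.333 and 1.13 in KO_TAC (log2 fold change -2.44 ± 0.54, adjusted p = 0.00819). The other falls were Lrrc15 (-2.1), a membrane protein of activated fibroblasts, Cacna1s (-1.82), a calcium channel subunit of skeletal muscle, Lgi1 (-2.12), a secreted protein best known from brain, and Tmem150c (-2.06), a membrane protein. The fall of Cyp26b1, which degrades retinoic acid, was -3.07 ± 0.8 (adjusted p = 0.0196), and its call was lost without FF_TAC 4 or KO_TAC 3 (adjusted p up to 0.068). Exons of Lgi1, Tmem150c, Cacna1s and Pfkfb1 overlap a gene on the other strand, which leaves their counts uncertain because the strand setting is not given; the same holds wherever such an overlap is named below.

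Many genes that bring fatty acids to beta-oxidation and through it were called lower in the overloaded knockouts, and Cpt1a was not the only carnitine gene among them. Against 6.8% lower and 7.53% higher over all genes, 5 of 8 carnitine shuttle genes were called lower and 0 higher (median log2 fold change -0.78), and of 19 beta-oxidation genes 13 were called lower and 0 higher (-0.57). The summed level of the shuttle genes was 831 to 1097 CPM in FF_TAC and 506 to 647 in KO_TAC. In the sham hearts it was 1039 to 1205 CPM in FF_sham and 800 to 952 in KO_sham, also without overlap. Beta-oxidation genes summed to 9112 to 10122 CPM in FF_TAC and 5092 to 7441 in KO_TAC. After sham surgery these sums were 9906 to 11527 CPM in FF_sham and 7983 to 9890 in KO_sham. Cpt2, the inner membrane transferase, stood at 218, 197, 196 and 226 CPM in FF_TAC and 91.1, 116, 105 and 142 in KO_TAC (log2 fold change -0.88 ± 0.14, adjusted p = 0.00139). Slc25a20, the carnitine-acylcarnitine carrier, stood at 204, 196, 198 and 204 CPM in FF_TAC and 83.1, 155, 141 and 139 in KO_TAC (log2 fold change -0.63 ± 0.16, adjusted p = 0.0171). Every knockout library was below every control for both, and KO_TAC 1 was the lowest. Crat, carnitine acetyltransferase, had a log2 fold change of -0.78 ± 0.12 (adjusted p = 0.0016), and Slc22a5, the carnitine transporter of the plasma membrane, one of -0.79 ± 0.22 (adjusted p = 0.0253), which was lost without FF_TAC 1, FF_TAC 4, KO_TAC 2 or KO_TAC 3 (adjusted p up to 0.0914). Cpt1b did not pass the test, at 10.3, 2.95, 7.29 and 8.89 CPM in FF_TAC and 7.11, 1.58, 2.11 and 5.53 in KO_TAC (log2 fold change -0.84 ± 0.42, adjusted p = 0.184). Its exons overlap the gene model Gm44502 on the same strand, so its counts are uncertain and were not set against those of Cpt1a. The shuttle count was 2 with the haemoglobin term (background 3.31%) and 3 without FF_TAC 1, FF_TAC 4, KO_TAC 2 or KO_TAC 3. Within the low-haemoglobin libraries the shuttle median was -0.45.

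Enzymes for long, medium and short chains were all among those called lower. Hadh, the short-chain 3-hydroxyacyl-CoA dehydrogenase, stood at 546, 516, 504 and 579 CPM in FF_TAC and 265, 272, 255 and 317 in KO_TAC (log2 fold change -0.95 ± 0.1, adjusted p = 2.77e-04). Hadha and Hadhb, the subunits of the trifunctional protein of long chains, had log2 fold changes of -0.66 ± 0.11 (adjusted p = 0.00227) and -0.57 ± 0.13 (adjusted p = 0.0102). Acadvl and Acadm, the very long-chain and medium-chain acyl-CoA dehydrogenases, had a log2 fold change of -0.76 ± 0.12 (adjusted p = 0.00167) and -0.64 ± 0.12 (adjusted p = 0.00301). Acaa2, the mitochondrial thiolase, stood at 913, 697, 641 and 755 CPM in FF_TAC and 405, 455, 341 and 402 in KO_TAC (log2 fold change -0.9 ± 0.13, adjusted p = 7.81e-04). Etfdh, which passes the electrons of these dehydrogenases to ubiquinone, had a log2 fold change of -0.78 ± 0.12 (adjusted p = 0.00111), and Mlycd, which removes malonyl-CoA, the inhibitor of Cpt1 enzymes, had a log2 fold change of -0.57 ± 0.12 (adjusted p = 0.00697). Of the 19 genes tested, 13 had every knockout library below every control, which 6.8% of all genes tested had. These were the 13 called genes. Acadl, the long-chain dehydrogenase, did not pass, at 1039, 1140.1, 1022 and 1058 CPM in FF_TAC and 653, 1153, 1074 and 883 in KO_TAC (log2 fold change -0.18 ± 0.14, adjusted p = 0.404), and only KO_TAC 1 and 4 lay below the controls. The median was -0.54 with the haemoglobin term (10 called lower), -0.57 in the low-haemoglobin libraries and -0.59 with the length trend removed. Exons of Crat, Etfdh, Acadvl and Hadha overlap genes on the other strand.

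**Figure D2:**
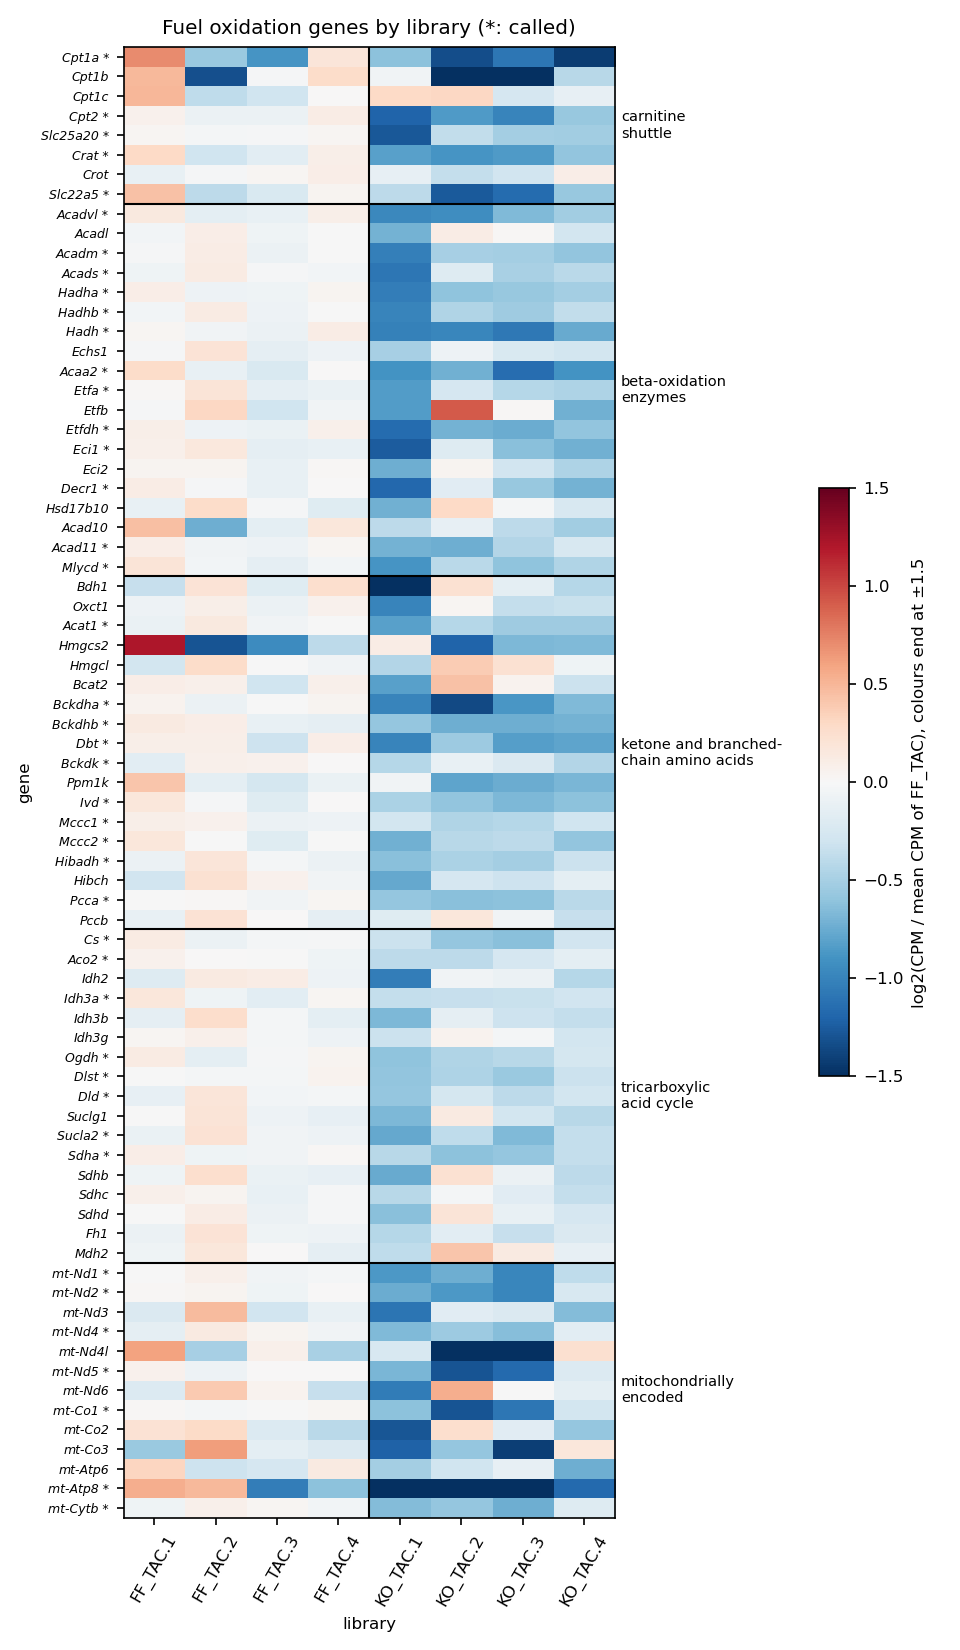
Level of each tested fuel oxidation gene in each library (columns) as log2 of CPM over the FF_TAC mean; blue is below and red above that mean, colours end at ±1.5, and stars mark called genes. The 4 KO_TAC columns are blue for most rows, 13 of the 19 beta-oxidation genes are called, and KO_TAC 2 is red for Etfb, Mdh2 and mt-Nd6.

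Fatty acid uptake and activation split by gene. Of 17 tested genes, 6 were called lower and 2 higher (median -0.2). Cd36, the main fatty acid translocase of heart, stood at 1461, 1274, 1224 and 1459.9 CPM in FF_TAC and 716, 901, 961 and 931 in KO_TAC (log2 fold change -0.63 ± 0.11, adjusted p = 0.00264). Acsl1, the main heart enzyme that joins fatty acids to CoA, stood at 924, 625, 699 and 823 CPM in FF_TAC and 369, 297, 303 and 490.2 in KO_TAC (log2 fold change -1.07 ± 0.16, adjusted p = 0.00113), and Acsl6, another enzyme of this family, had a log2 fold change of -1.02 ± 0.21 (adjusted p = 0.00535). Vldlr, a lipoprotein receptor, had a log2 fold change of -0.59 ± 0.11 (adjusted p = 0.00262). The acyl-CoA thioesterases Acot1 and Acot2 had a log2 fold change of -2.24 ± 0.51 (adjusted p = 0.01) and -0.99 ± 0.15 (adjusted p = 0.00111), and Acot1 was highest in FF_TAC 1 at 20 CPM. The 2 genes called higher were Acsl4 (log2 fold change 0.47 ± 0.15, adjusted p = 0.0458) and Acsl5 (log2 fold change 0.36 ± 0.1, adjusted p = 0.0322), both with overlapping groups. Their calls were lost when single libraries were left out: for Acsl4 its adjusted p was up to 0.162 without FF_TAC 1, FF_TAC 2, FF_TAC 4, KO_TAC 1, KO_TAC 3 or KO_TAC 4, and for Acsl5 its adjusted p was up to 0.116 without FF_TAC 1, FF_TAC 4, KO_TAC 2 or KO_TAC 3. Exons of Acsl1, Acsl5 and Acsl6 overlap genes on the other strand.

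Some of the nuclear receptors that drive these genes were called lower as well. Of 12 PPAR, PGC-1 and ERR regulators 5 were called lower and 0 higher (median -0.24), in each of the 8 fits that left out 1 library. Their summed level was 513 to 596 CPM in FF_TAC and 436 to 450 in KO_TAC. It was 568 to 622 CPM in FF_sham and 527 to 547 in KO_sham. Ppara, the receptor that fatty acids activate, stood at 17.3, 11.5, 8.03 and 13.1 CPM in FF_TAC and 5.49, 6.45, 5.83 and 3.57 in KO_TAC (log2 fold change -1.23 ± 0.22, adjusted p = 0.00297). Its partners Rxra and Rxrg had log2 fold changes of -0.66 ± 0.15 (adjusted p = 0.00984) and -0.68 ± 0.12 (adjusted p = 0.00252), and the estrogen-related receptors Esrrb and Esrrg had a log2 fold change of -0.51 ± 0.12 (adjusted p = 0.0132) and -0.59 ± 0.13 (adjusted p = 0.00795). Ppargc1a, the coactivator PGC-1 alpha, was at 66.2, 47.5, 62.4 and 52.5 CPM in FF_TAC and 71.5, 55.5, 42.3 and 36.3 in KO_TAC, with overlap (log2 fold change -0.15 ± 0.17, adjusted p = 0.579). Of 14 PPAR target genes, which share Cpt1a, Acadm, Mlycd, Cd36, Acot1 and Acot2 with the lists above, these 6 were the ones called lower. Pdk4, a target that inhibits pyruvate dehydrogenase, did not pass, at 297, 476, 548 and 197 CPM in FF_TAC and 532, 319, 466 and 698 in KO_TAC (log2 fold change 0.41 ± 0.51, adjusted p = 0.613). Nor did Ucp3, a mitochondrial carrier, at 93, 53.5, 72.1 and 40.4 CPM in FF_TAC and 11.5, 19.1, 28.7 and 55.2 in KO_TAC (log2 fold change -1.18 ± 0.44, adjusted p = 0.0873). Of 16 genes of triglyceride storage and lipolysis, 4 were called lower and 0 higher, and Dgat2, which makes triglyceride, fell furthest, from 427, 403, 406 and 423 CPM in FF_TAC to 164, 208, 174 and 237 in KO_TAC (log2 fold change -1.08 ± 0.12, adjusted p = 3.17e-04). Without KO_TAC 3 that count was 1. The triglyceride genes summed to 2020 to 2238 CPM in FF_TAC and 1193 to 2060 in KO_TAC, with overlap. In the sham hearts the sums were 2145 to 2413 CPM in FF_sham and 1691 to 2072 in KO_sham, without overlap. Pnpla2, the lipase ATGL that opens triglyceride breakdown, did not pass (log2 fold change -0.047 ± 0.15, adjusted p = 0.856).

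Genes of glucose use moved in both directions, and isoforms of 1 enzyme moved apart. Of 31 tested genes 7 were called higher and 7 lower (median 0.092). Slc2a4, the insulin-regulated transporter GLUT4, stood at 459, 378, 375 and 411 CPM in FF_TAC and 261, 279.8, 244 and 294 in KO_TAC (log2 fold change -0.59 ± 0.095, adjusted p = 0.00167). Slc2a1, the transporter GLUT1 of the fetal heart, stood at 22, 23, 21 and 13.5 CPM in FF_TAC and 41.5, 47.9, 39.8 and 47.4 in KO_TAC (log2 fold change 1.16 ± 0.17, adjusted p = 8.65e-04). The groups did not overlap for either. Hexokinases went the same 2 ways: Hk2, the isoform of adult muscle, stood at 374, 437, 388 and 402 CPM in FF_TAC and 243, 342, 284 and 298 in KO_TAC (log2 fold change -0.46 ± 0.11, adjusted p = 0.0114), and Hk1, the isoform of fetal heart and most other tissues, at 207, 172, 212 and 179.7 CPM in FF_TAC and 269, 366, 423 and 341 in KO_TAC (log2 fold change 0.86 ± 0.14, adjusted p = 0.00179). Among phosphofructokinases, the muscle isoform Pfkm had a log2 fold change of -0.46 ± 0.078 (adjusted p = 0.00205) and the platelet isoform Pfkp 1.17 ± 0.28 (adjusted p = 0.0125), with KO_TAC 1 inside the control range for Pfkp.

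The bifunctional enzymes Pfkfb1 and Pfkfb2, which set the activator of phosphofructokinase, had a log2 fold change of -2.52 ± 0.48 (adjusted p = 0.00362) and -1.09 ± 0.19 (adjusted p = 0.00263). Slc16a3, a lactate exporter of glycolytic cells, stood at 3.01, 4.46, 4.35 and 2.6 CPM in FF_TAC and 8.92, 16.3, 10.2 and 8.45 in KO_TAC (log2 fold change 1.6 ± 0.29, adjusted p = 0.00275). Pdk2, a kinase that inhibits pyruvate dehydrogenase, had a log2 fold change of -0.48 ± 0.11 (adjusted p = 0.00844), and Fbp2, the muscle fructose bisphosphatase, -1.94 ± 0.28 (adjusted p = 0.00101). The haemoglobin term left 6 of the 31 genes higher and 6 lower. Higher genes numbered 4 without FF_TAC 1, FF_TAC 4, KO_TAC 2 or KO_TAC 3, and 13 without KO_TAC 1. Exons of Slc2a1, Hk1, Pfkm, Pfkp, Pfkfb1 and Pfkfb2 overlap genes on the other strand, and those of Pfkm and Pfkfb2 also one on the same strand.

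Many genes of branched-chain amino acid breakdown and some of the tricarboxylic acid cycle were also called lower. Of 18 ketone and branched-chain amino acid genes 10 were called lower and 0 higher (median -0.5), with 10 of them lower with the haemoglobin term. Bckdha, Bckdhb and Dbt, subunits of the branched-chain ketoacid dehydrogenase, had log2 fold changes of -0.95 ± 0.14 (adjusted p = 0.00117), -0.68 ± 0.12 (adjusted p = 0.00255) and -0.77 ± 0.12 (adjusted p = 0.00159). Bckdha stood at 87, 78.7, 83.5 and 85.9 CPM in FF_TAC and 42, 32.9, 45.6 and 53.1 in KO_TAC, and Ivd, which acts next on the leucine path, at 415, 363, 324 and 369 CPM in FF_TAC and 264, 244, 230.1 and 239 in KO_TAC (log2 fold change -0.59 ± 0.12, adjusted p = 0.00637). Acat1, a thiolase that ketone and isoleucine breakdown share, had a log2 fold change of -0.57 ± 0.1 (adjusted p = 0.00284). Bdh1, the ketone enzyme beta-hydroxybutyrate dehydrogenase, did not pass, at 296, 433, 331 and 447 CPM in FF_TAC and 85.6, 443, 341 and 279 in KO_TAC, with KO_TAC 1 far below the other 7 libraries. Exons of Bckdha and Bdh1 overlap genes on the other strand.

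Of 17 cycle genes 8 were called lower and 0 higher (median -0.33). The count was 5 without KO_TAC 3 and 0 with only the 8 compared libraries in the fit (median -0.34), and all 17 were below 0 within the low-haemoglobin libraries, where 46.7% of all genes were below and 53.3% above. Those libraries are part of the main comparison, in which 16 of the 17 were below 0. The cycle genes summed to 15511 to 16656 CPM in FF_TAC and 10858 to 14063 in KO_TAC. In the sham hearts the sums were 15494 to 18015 CPM in FF_sham and 13919 to 15381 in KO_sham, also without overlap. Sdha, the flavoprotein of succinate dehydrogenase, stood at 1453, 1305, 1310.0 and 1372 CPM in FF_TAC and 1022, 888, 909.7 and 1062 in KO_TAC (log2 fold change -0.48 ± 0.092, adjusted p = 0.00373). Sucla2, a subunit of succinyl-CoA ligase, had a log2 fold change of -0.53 ± 0.11 (adjusted p = 0.00739), and Dlst, the core of the ketoglutarate dehydrogenase complex, -0.48 ± 0.083 (adjusted p = 0.00237).

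Respiratory chain subunits come from the nuclear and the mitochondrial genome, and fewer nuclear ones passed the test. Of 20 nuclear genes 2 were called lower, Ndufs1 of complex I (log2 fold change -0.47 ± 0.1, adjusted p = 0.008) and Uqcrc2 of complex III (log2 fold change -0.36 ± 0.09, adjusted p = 0.0152), with 0 called higher and a median of -0.15. With the length trend removed 7 were lower, and without KO_TAC 2 5 were. Of the 13 genes of the mitochondrial genome 7 were called lower and 0 higher (median -0.62). Their summed level ran from 207045 to 216834 CPM in FF_TAC and from 114351 to 176964 in KO_TAC. Cytochrome oxidase subunit mt-Co1 stood at 78804, 76253, 77619 and 79841 CPM in FF_TAC and 50808, 31752, 36927 and 64502 in KO_TAC (log2 fold change -0.76 ± 0.17, adjusted p = 0.00968). Complex I subunit mt-Nd1 had a log2 fold change of -0.72 ± 0.13 (adjusted p = 0.00253) and cytochrome b, mt-Cytb, -0.52 ± 0.12 (adjusted p = 0.0126). KO_TAC 4 was nearest to the controls for all 3. Without KO_TAC 3 the count was 4, with KO_TAC 2 and 3 both left out it was 2, and with only the 8 compared libraries in the fit it was 1. Libraries were poly(A)-selected, so differences in the tails of mitochondrial transcripts and in their level cannot be told apart. Exons of Ndufs1, Uqcrc2 and mt-Co1 overlap genes on the other strand, and those of mt-Nd1 one on the same strand.

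**Figure D3:**
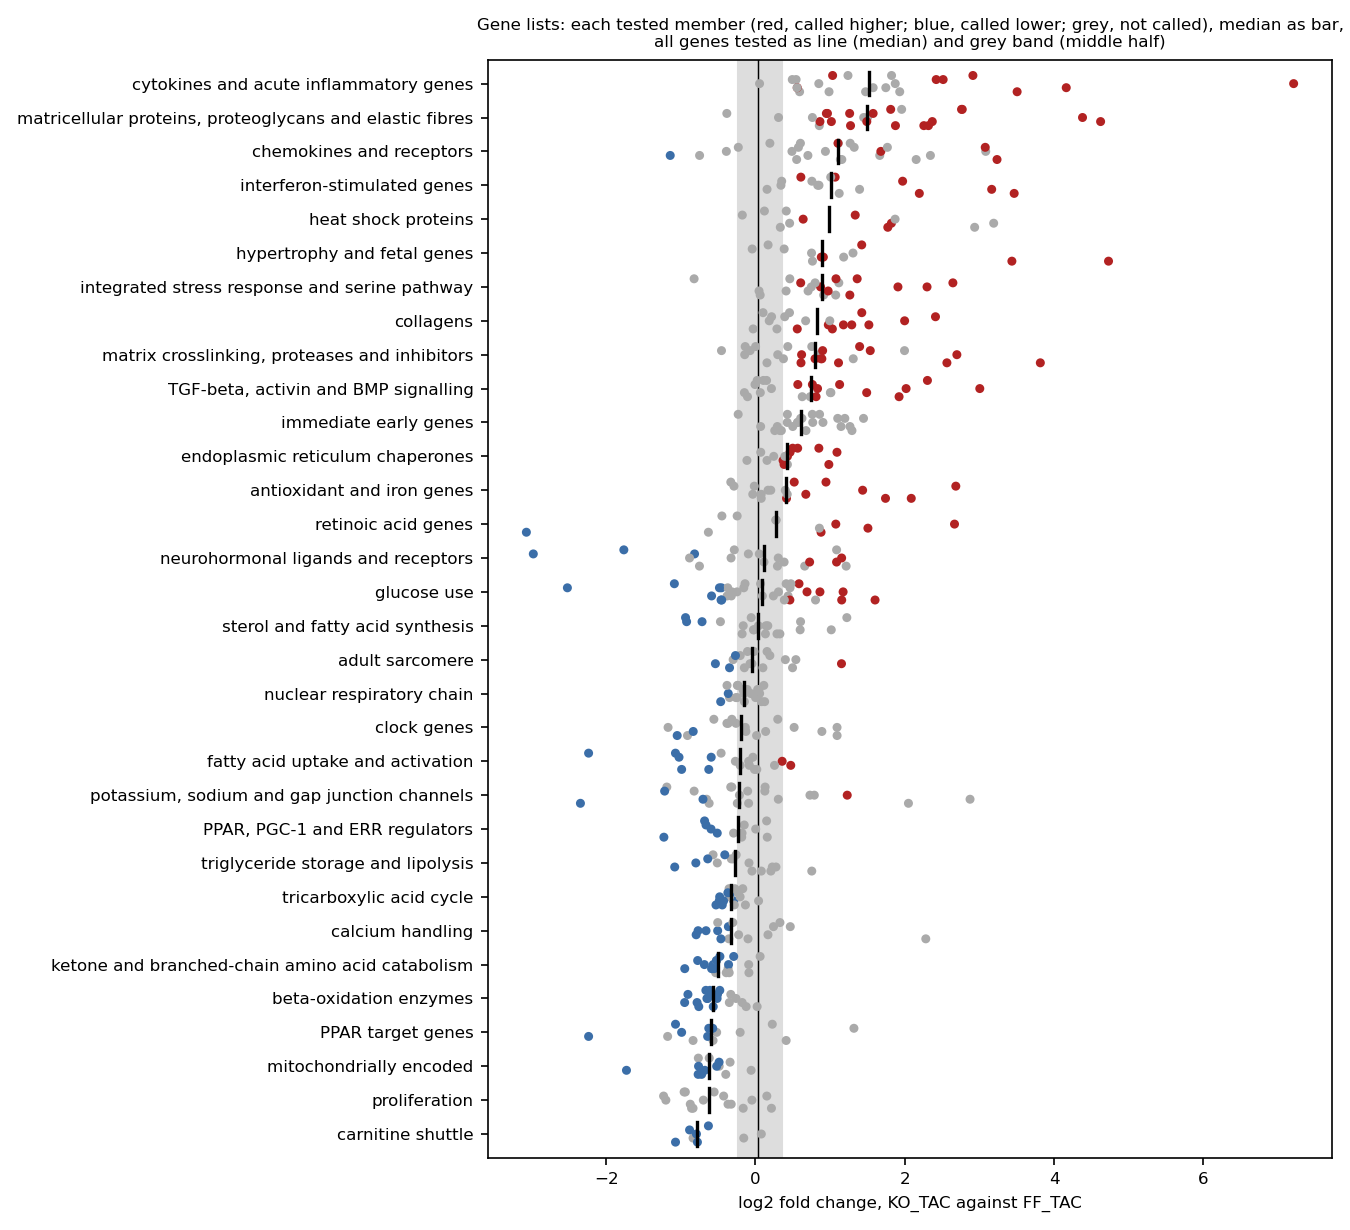
Log2 fold change of KO_TAC against FF_TAC (horizontal axis) for every tested member of 32 gene lists (rows, ordered by median); red points are called higher, blue points called lower and grey points not called, black bars are list medians, and the vertical line and grey band are the median and middle 50% of all genes tested. The cytokine list and the matricellular list lie highest, with medians of 1.53 and 1.5, and the carnitine shuttle lowest, with a median of -0.78.

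Genes of hypertrophy and of the fetal heart were higher in part. Of 12 hypertrophy and fetal genes 5 were called higher and 0 lower (median 0.9): Nppa, Ankrd1, Fhl1, Tnni1 and Actn1. Tnni1, the fetal troponin I, was at 0.219, 0.181, 0 and 0.11 CPM in FF_TAC and 2.11, 1.8, 1.0 and 0.952 in KO_TAC (log2 fold change 3.44 ± 0.7, adjusted p = 0.00532). Actn1, the non-muscle alpha-actinin, was at 31.1, 33.4, 33.5 and 30.8 CPM in FF_TAC and 50.9, 70, 63.9 and 52.3 in KO_TAC (log2 fold change 0.88 ± 0.12, adjusted p = 7.91e-04). Both had no overlap. Ankrd1, a stretch-responsive muscle protein, was at 1296, 7689.8, 5247 and 3516 CPM in FF_TAC and 5595, 17104, 14773 and 10101 in KO_TAC (log2 fold change 1.42 ± 0.45, adjusted p = 0.0464), and Fhl1, a LIM protein of the sarcomere, had a log2 fold change of 0.91 ± 0.24 (adjusted p = 0.0228). Nppb, the B-type natriuretic peptide, was higher in all 4 knockouts than in any control, at 149.7, 564, 537 and 517 CPM in FF_TAC and 844, 1290.4, 1088 and 782 in KO_TAC, yet did not pass (log2 fold change 1.18 ± 0.5, adjusted p = 0.12). FF_TAC 1 was the low control for Nppb and Ankrd1. Acta1, skeletal actin, did not pass either, at 737, 6907, 5783 and 4208 CPM in FF_TAC and 1129, 5147, 3627 and 7199 in KO_TAC (log2 fold change -0.044 ± 0.69, adjusted p = 0.973). The calls of Ankrd1 and Fhl1 were lost when single libraries were left out: for Ankrd1 its adjusted p was up to 0.132 without FF_TAC 1, FF_TAC 3, FF_TAC 4, KO_TAC 2, KO_TAC 3 or KO_TAC 4, and for Fhl1 its adjusted p was up to 0.0851 without FF_TAC 1, FF_TAC 4, KO_TAC 2, KO_TAC 3 or KO_TAC 4. The list's count was 2 without FF_TAC 4, 3 without FF_TAC 1, KO_TAC 2, KO_TAC 3 or KO_TAC 4, and 2 with the haemoglobin term.

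Of the myosin heavy chains, the adult one was called lower. Myh7, the slow beta chain of the fetal heart, was at 786, 1771, 3611 and 1354 CPM in FF_TAC and 1633, 5423, 8100.1 and 3440.1 in KO_TAC and did not pass (log2 fold change 1.31 ± 0.44, adjusted p = 0.061). Myh6, the adult alpha chain, was at 27634, 22987, 22922 and 25646 CPM in FF_TAC and 22986, 16096, 10721 and 18471 in KO_TAC (log2 fold change -0.54 ± 0.17, adjusted p = 0.0496), and its call was lost without FF_TAC 1, FF_TAC 3, FF_TAC 4, KO_TAC 2, KO_TAC 3 or KO_TAC 4 (adjusted p up to 0.126). Among 17 adult sarcomere genes 3 were called lower and 1 higher (median -0.047). Ttn, titin, was at 3047, 3197, 3165 and 3059 CPM in FF_TAC and 2375, 2428, 2329 and 2657 in KO_TAC (log2 fold change -0.35 ± 0.079, adjusted p = 0.00984), with no overlap, and -0.36 with the length trend removed (adjusted p = 0.0103). The one called higher was Des, desmin (log2 fold change 1.15 ± 0.35, adjusted p = 0.0377), at 2261, 4153, 3431 and 2627 CPM in FF_TAC and 2257, 10953, 9546 and 4953 in KO_TAC, lost without FF_TAC 1, FF_TAC 3, FF_TAC 4, KO_TAC 2 or KO_TAC 3 (adjusted p up to 0.12). The count of lower genes was 1 without FF_TAC 1, 3 or 4, KO_TAC 2 or KO_TAC 3, and 1 with the haemoglobin term. Exons of Actn1, Myh7, Myh6, Des and Ttn overlap genes on the other strand.

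Some genes of calcium cycling were called lower, while the count of ion channel genes called lower changed with the fit. Of 16 calcium handling genes 6 were called lower and 0 higher (median -0.33). Hrc, a calcium-binding protein of the sarcoplasmic reticulum, was at 1527, 1485, 1487 and 1368 CPM in FF_TAC and 946, 859, 653 and 982 in KO_TAC (log2 fold change -0.77 ± 0.12, adjusted p = 0.00121). Cacna1c, the pore of the L-type calcium channel, had a log2 fold change of -0.66 ± 0.13 (adjusted p = 0.0046), and Jph2, which holds that channel next to the reticulum, -0.46 ± 0.091 (adjusted p = 0.0046). Pln, the inhibitor of the calcium pump, was at 1644, 1769, 1409.5 and 1495 CPM in FF_TAC and 897, 1148, 1185 and 1214 in KO_TAC (log2 fold change -0.51 ± 0.13, adjusted p = 0.0158). The pump itself, Atp2a2 (SERCA2), was at 14191, 9699.6, 10468 and 12209.5 CPM in FF_TAC and 10406, 4075, 4525 and 7797 in KO_TAC (log2 fold change -0.79 ± 0.24, adjusted p = 0.0402), lowest in KO_TAC 2 and 3, and its call was lost without FF_TAC 1, FF_TAC 3, FF_TAC 4, KO_TAC 2 or KO_TAC 3 (adjusted p up to 0.12). With the haemoglobin term 3 of these genes were lower. Exons of Pln and Atp2a2 overlap genes on the other strand.

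Of 21 potassium, sodium and gap junction channel genes 3 were called lower, Kcnip2, Kcnv2 and Hcn4, and 1 higher, Kcne1. Kcnip2, a subunit of the transient outward current, was at 247, 163, 131 and 168 CPM in FF_TAC and 84, 94, 104 and 153 in KO_TAC (log2 fold change -0.7 ± 0.22, adjusted p = 0.0421). Hcn4, a pacemaker channel, had a log2 fold change of -1.22 ± 0.31 (adjusted p = 0.0163), Kcnv2, a modifier of potassium channels, -2.34 ± 0.62 (adjusted p = 0.0214), and Kcne1, a subunit of the slow delayed rectifier, 1.23 ± 0.32 (adjusted p = 0.0202). None of these 4 calls held in every fit that left out 1 library: Kcnip2 was lost without FF_TAC 1, FF_TAC 4, KO_TAC 1, KO_TAC 2 or KO_TAC 3 (adjusted p up to 0.142), Kcnv2 was lost without FF_TAC 1, FF_TAC 4, KO_TAC 2 or KO_TAC 3 (adjusted p up to 0.0874), Hcn4 was lost without FF_TAC 4 or KO_TAC 3 (adjusted p up to 0.0616) and Kcne1 without FF_TAC 1 or KO_TAC 3 (adjusted p up to 0.0615). The count of lower genes was 0 without FF_TAC 4 or KO_TAC 3, 1 without FF_TAC 1 or KO_TAC 2, 8 without FF_TAC 2 and 7 without KO_TAC 1. The count of higher genes was 0 without FF_TAC 1 or KO_TAC 3. With the haemoglobin term 0 were lower and 2 higher, and the median turned from -0.21 to 0.011. With KO_TAC 1 and 4 alone 0 were lower, with only the 8 compared libraries in the fit 0, and without the low-haemoglobin controls 7.

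Many extracellular matrix genes were called higher, from collagens to the enzymes that crosslink and trim them. Of 18 collagens tested 9 were called higher and 0 lower (median 0.82), and 8 had every knockout library above every control, which 6.7% of all genes had. Of 24 matricellular proteins, proteoglycans and elastic fibre genes 17 were called higher and 0 lower (median 1.5). Of 25 crosslinking enzymes, proteases and inhibitors 12 were called higher and 0 lower (median 0.8). With the haemoglobin term these counts were 8, 13 and 11, and without KO_TAC 1 they were 8, 17 and 14. Within the low-haemoglobin libraries the medians were 0.72, 1.3 and 0.52.

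Col1a1 and Col1a2, the chains of type I collagen, had log2 fold changes of 1.03 ± 0.2 (adjusted p = 0.00377) and 0.98 ± 0.18 (adjusted p = 0.00282). Col1a1 was at 96.9, 117, 133 and 146 CPM in FF_TAC and 247, 241, 218 and 299 in KO_TAC. Col3a1, type III collagen, was also above every control in all 4 knockouts, at 194, 235, 212 and 267 CPM in FF_TAC and 496, 369.8, 332 and 612 in KO_TAC, but did not pass (log2 fold change 1.0 ± 0.32, adjusted p = 0.0506). Col12a1, a collagen that binds the surface of fibrils under tension, was at 1.53, 2.41, 3.25 and 2.21 CPM in FF_TAC and 8.77, 10.7, 16.5 and 14 in KO_TAC (log2 fold change 2.41 ± 0.34, adjusted p = 8.65e-04). Col16a1, another fibril-associated collagen, had a log2 fold change of 1.52 ± 0.21 (adjusted p = 7.65e-04) and Col5a2, which helps to start fibrils, 1.29 ± 0.21 (adjusted p = 0.00167). Col4a1 of the basement membrane did not pass, at 368, 514, 611 and 572 CPM in FF_TAC and 559, 542, 531 and 764 in KO_TAC (log2 fold change 0.22 ± 0.18, adjusted p = 0.431).

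Comp, cartilage oligomeric matrix protein (chromosome 8, 70373558 to 70382066, GRCm38), was at 6.85, 4.58, 3.37 and 7.23 CPM in FF_TAC and 63.6, 132, 306 and 42.8 in KO_TAC (log2 fold change 4.62 ± 0.7, adjusted p = 0.00121). The lowest knockout was KO_TAC 4, and the lack of overlap is part of the rule that named Comp. Thbs4, thrombospondin 4, was at 8.21, 15, 17.8 and 14.7 CPM in FF_TAC and 45.8, 121, 129 and 84.2 in KO_TAC (log2 fold change 2.77 ± 0.38, adjusted p = 7.65e-04). Postn, periostin of activated fibroblasts, was at 40.5, 114, 156 and 73.8 CPM in FF_TAC and 140.1, 519.6, 639 and 616 in KO_TAC (log2 fold change 2.32 ± 0.44, adjusted p = 0.00375), and KO_TAC 1 lay inside the control range. Ccn2, connective tissue growth factor, had a log2 fold change of 2.37 ± 0.43 (adjusted p = 0.00273) and was highest in KO_TAC 1, at 902 CPM. Bgn, biglycan, had a log2 fold change of 1.27 ± 0.2 (adjusted p = 0.00167). Spp1, osteopontin, had a log2 fold change of 4.38 ± 1.07 (adjusted p = 0.0142), and its call was lost without FF_TAC 4 (adjusted p up to 0.0544). Tnc, tenascin C, had a log2 fold change of 1.88 ± 0.55 (adjusted p = 0.033), lost without FF_TAC 1, FF_TAC 4 or KO_TAC 4 (adjusted p up to 0.104).

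Lox, lysyl oxidase that crosslinks collagen, was at 5.37, 4.64, 4.54 and 3.37 CPM in FF_TAC and 14.6, 42, 33.1 and 16.5 in KO_TAC (log2 fold change 2.56 ± 0.32, adjusted p = 4.88e-04), and the related Loxl3 had a log2 fold change of 1.54 ± 0.25 (adjusted p = 0.00167). Timp1, the inhibitor of matrix metalloproteinases, was at 2.96, 9.88, 14.7 and 2.1 CPM in FF_TAC and 42.7, 136, 174 and 63 in KO_TAC (log2 fold change 3.82 ± 0.66, adjusted p = 0.00238). FF_TAC 2 and 3 lay above the other controls for Timp1, which the same rule named. Mmp14, a membrane-bound metalloproteinase, had a log2 fold change of 1.4 ± 0.19 (adjusted p = 7.81e-04), Adamts2, which trims procollagen, 1.11 ± 0.14 (adjusted p = 5.45e-04), and Mmp3, stromelysin 1, 2.7 ± 0.58 (adjusted p = 0.00732), with KO_TAC 4 inside the control range for Mmp3. Exons of Ccn2, Tnc, Lox, Loxl3 and Col4a1 overlap genes on the other strand, and those of Col3a1 and Spp1 a gene on the same strand. Some fibroblast markers were higher beside the matrix. Of 7 fibroblast markers 4 were called higher and 0 lower, with a summed level of 1769 to 2204 CPM in FF_TAC and 2787 to 4012 in KO_TAC, and of 7 markers of activated fibroblasts 5 were called higher and 0 lower. The fibroblast count was 2 without FF_TAC 2, FF_TAC 4, KO_TAC 1 or KO_TAC 3. Col1a1 and Dcn are on a fibroblast and a matrix list alike, as Postn, Comp and Cthrc1 are. The part of fibroblast number in the rise of matrix was not tested.

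**Figure D4:**
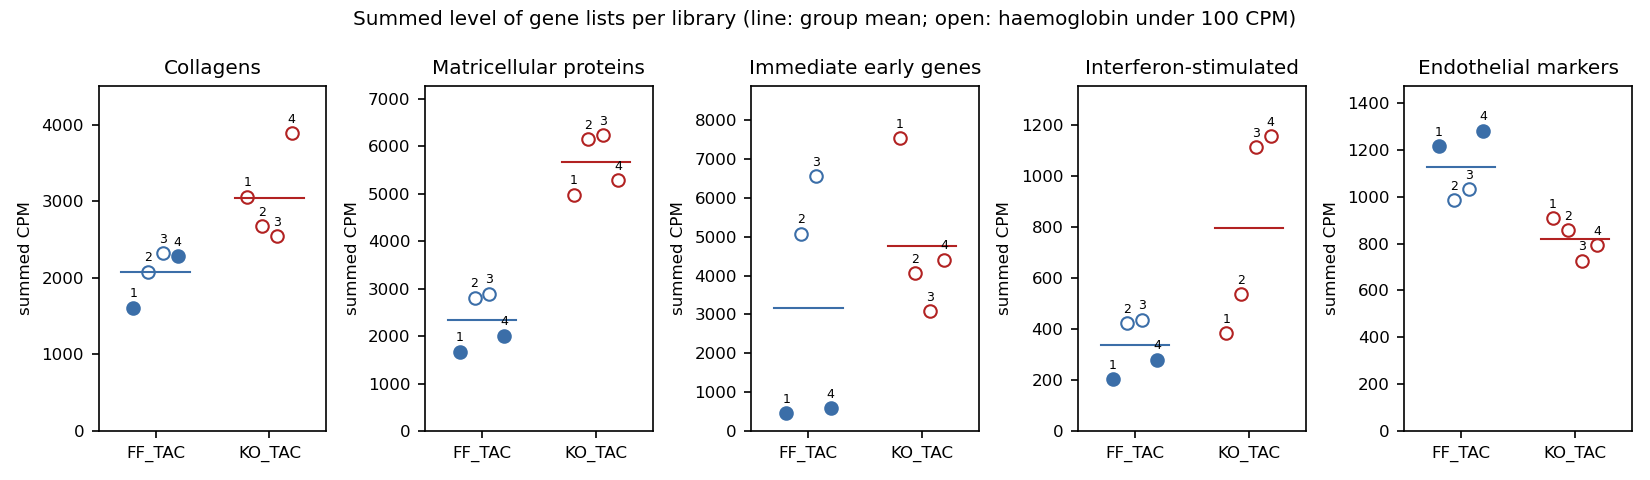
Summed CPM (vertical axes from 0) of 5 gene lists in each library of FF_TAC (blue) and KO_TAC (red), numbered by replicate; lines are group means and open symbols are libraries with haemoglobin under 100 CPM. Collagens and matricellular proteins are higher and endothelial markers lower in all 4 KO_TAC libraries, immediate early genes are low only in FF_TAC 1 and 4, and interferon-stimulated genes are highest in KO_TAC 3 and 4.

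Some ligands and latency proteins of the TGF-beta family were called higher. Of 22 genes of TGF-beta, activin and BMP signalling 10 were called higher and 0 lower (median 0.75), 6 with the haemoglobin term. Tgfb2 was at 17, 31.8, 22.2 and 17.8 CPM in FF_TAC and 35.4, 75.7, 86.8 and 51.6 in KO_TAC (log2 fold change 1.49 ± 0.25, adjusted p = 0.00198), and Tgfb3 had a log2 fold change of 0.83 ± 0.16 (adjusted p = 0.00362). Tgfb1 did not pass and followed the haemoglobin split, at 31, 81.8, 84.7 and 33.3 CPM in FF_TAC and 56.4, 83.5, 110.1 and 106 in KO_TAC (log2 fold change 0.63 ± 0.29, adjusted p = 0.157; 0.07 within the low-haemoglobin libraries). The receptor Tgfbr1 was at 15, 14.8, 16.9 and 14.6 CPM in FF_TAC and 22.8, 22.6, 21.5 and 23.8 in KO_TAC (log2 fold change 0.57 ± 0.099, adjusted p = 0.00243). Ltbp2, a matrix protein of the family that holds latent TGF-beta, was at 6.02, 11.4, 16.7 and 7.95 CPM in FF_TAC and 30.4, 110.0, 122 and 75.6 in KO_TAC (log2 fold change 3.01 ± 0.47, adjusted p = 0.00148), and Ltbp3 had a log2 fold change of 0.76 ± 0.11 (adjusted p = 0.00117). Inhba, the chain of activin A, had a log2 fold change of 1.92 ± 0.32 (adjusted p = 0.00199). Gdf15, a stress-induced ligand, had a log2 fold change of 2.3 ± 0.62 (adjusted p = 0.0226) and Smad7, an inhibitor of the pathway, 0.81 ± 0.21 (adjusted p = 0.0177). The call of Gdf15 was lost without FF_TAC 4 or KO_TAC 3 (adjusted p up to 0.0758), and that of Smad7 without FF_TAC 1 (adjusted p up to 0.0606). Exons of Tgfb2, Tgfb3, Ltbp2 and Ltbp3 overlap genes on the other strand.

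Some genes of the integrated stress response, which cells with mitochondrial or amino acid stress switch on through the factor ATF4, were called higher. Of 20 tested genes of this response and of serine and proline synthesis 9 were called higher and 0 lower (median 0.89). With the haemoglobin term 7 were, and with only the 8 compared libraries in the fit 4. Promoters of 3 of the called genes are shown, because they hold the ATF4 and CHOP motif TGATGNAA before their start. Each is the 250 bases before the RefSeq start, 5′ to 3′ on the gene's strand (GRCm38.p6), with the motif or its reverse complement in capitals.
Asns, chr6:7693210-7693459, minus strand: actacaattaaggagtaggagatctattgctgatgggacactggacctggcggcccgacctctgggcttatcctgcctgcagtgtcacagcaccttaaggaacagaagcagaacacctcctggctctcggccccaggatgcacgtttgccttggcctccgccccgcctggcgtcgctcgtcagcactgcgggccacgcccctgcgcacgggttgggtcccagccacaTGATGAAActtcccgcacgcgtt
Nupr1, chr7:126625471-126625720, minus strand: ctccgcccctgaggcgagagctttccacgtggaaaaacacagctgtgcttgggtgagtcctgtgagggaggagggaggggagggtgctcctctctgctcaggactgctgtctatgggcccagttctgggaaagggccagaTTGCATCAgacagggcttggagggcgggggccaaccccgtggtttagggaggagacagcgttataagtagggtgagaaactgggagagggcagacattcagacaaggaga
Pycr1, chr11:120643749-120643998, minus strand: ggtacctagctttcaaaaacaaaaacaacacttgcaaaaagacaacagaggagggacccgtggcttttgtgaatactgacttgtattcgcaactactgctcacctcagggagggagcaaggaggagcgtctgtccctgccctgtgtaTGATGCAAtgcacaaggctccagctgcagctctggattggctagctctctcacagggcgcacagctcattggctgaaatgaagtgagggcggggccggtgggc
The motif lies 16 to 23 bases before the start in Asns, 103 to 110 in Nupr1 and 96 to 103 in Pycr1. Searched on both strands in windows of 250 bases before to 50 after the start, it was present in 4 of the 9 called genes (these 3 and Trib3, in which it reaches past the 250 bases shown for the others). It was present in 6 of all 18 list genes with a window and in 4.51% of 27025 genes in the table. A match describes the letters only, and the list holds known ATF4 targets. The same search used a PPAR and an ERR motif, held by 0.0481% and 0.466% of those 27025 genes. Neither was found in the carnitine shuttle (6 genes with a window), beta-oxidation (17) or PPAR target (11) lists. The ERR motif was found in Acsl6, Sdhd and Hcn2 of other lists, the PPAR motif in no list. Motifs this rare are seldom met in lists of this size, so nothing is concluded from their absence.

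Mthfd2, a mitochondrial enzyme of folate metabolism, was at 2.46, 6.39, 7.54 and 2.65 CPM in FF_TAC and 17.6, 16.1, 22.9 and 36.6 in KO_TAC (log2 fold change 2.3 ± 0.41, adjusted p = 0.00258). Asns, asparagine synthetase, was at 2.14, 7.17, 9.25 and 1.82 CPM in FF_TAC and 10.3, 11.6, 21.1 and 33.1 in KO_TAC (log2 fold change 1.91 ± 0.48, adjusted p = 0.0157). For both, FF_TAC 2 and 3 lay above the other controls, KO_TAC 4 was the highest knockout, and the groups did not overlap. Nupr1, a stress-induced nuclear protein, was at 4.65, 26.1, 25.4 and 4.03 CPM in FF_TAC and 47.1, 141, 133 and 54.7 in KO_TAC (log2 fold change 2.64 ± 0.57, adjusted p = 0.00766). Pycr1, which makes proline, had a log2 fold change of 1.36 ± 0.29 (adjusted p = 0.00769), Slc3a2, a chain of amino acid transporters, 0.97 ± 0.15 (adjusted p = 0.00126), and Atf5, a factor of the mitochondrial stress response, 0.87 ± 0.14 (adjusted p = 0.00183). Trib3, a pseudokinase that ATF4 and CHOP induce, had a log2 fold change of 1.26 ± 0.31 (adjusted p = 0.0146). Its call was lost without FF_TAC 4 (adjusted p up to 0.0537), and its log2 fold change was 0.83 without KO_TAC 4. Phgdh, the first enzyme of serine synthesis, had a log2 fold change of 1.08 ± 0.33 (adjusted p = 0.0394), 0.69 without KO_TAC 1, and its call was lost without FF_TAC 1, FF_TAC 3, FF_TAC 4, KO_TAC 1 or KO_TAC 2 (adjusted p up to 0.128). Atf4 itself did not pass and followed the haemoglobin split, at 56.2, 197, 204 and 69.6 CPM in FF_TAC and 203, 219, 221 and 214 in KO_TAC (log2 fold change 0.7 ± 0.34, adjusted p = 0.174). The factors Atf3 and Ddit3 (CHOP) did not pass either, at 3.01, 280.1, 295 and 6.13 CPM in FF_TAC and 593, 143, 136 and 226 in KO_TAC for Atf3 (log2 fold change 0.91 ± 1.38, adjusted p = 0.684) and 21.3, 53.2, 52.5 and 24.2 CPM in FF_TAC and 45.5, 133, 90.6 and 59.1 in KO_TAC for Ddit3 (log2 fold change 1.12 ± 0.38, adjusted p = 0.0584). Exons of Atf5 and Ddit3 overlap genes on the other strand.

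Of 15 chaperone genes of the endoplasmic reticulum 9 were called higher and 0 lower (median 0.43). Creld2 and Manf, secreted proteins of reticulum stress, had a log2 fold change of 0.98 ± 0.19 (adjusted p = 0.00403) and 0.85 ± 0.17 (adjusted p = 0.00465), and Sdf2l1, part of a chaperone complex, 1.09 ± 0.25 (adjusted p = 0.0105). Pdia3, a disulfide isomerase, was at 144, 157, 132 and 123 CPM in FF_TAC and 208, 188, 203 and 168 in KO_TAC (log2 fold change 0.46 ± 0.1, adjusted p = 0.00795). Hspa5 (BiP), the main chaperone there, was above every control in all 4 knockouts, at 602, 559.7, 632 and 497 CPM in FF_TAC and 871, 714, 835 and 658 in KO_TAC, but did not pass (log2 fold change 0.43 ± 0.14, adjusted p = 0.0558). The count was 4 without FF_TAC 4, 5 without FF_TAC 1, FF_TAC 3 or KO_TAC 3, 4 with the haemoglobin term, 5 with KO_TAC 1 and 4 alone, 5 without the low-haemoglobin controls and 1 with only the 8 compared libraries in the fit. Of 12 cytosolic and mitochondrial heat shock proteins 4 were called higher and 0 lower. Hsph1 was at 53, 74, 121 and 57.2 CPM in FF_TAC and 152, 252, 359.6 and 279 in KO_TAC (log2 fold change 1.77 ± 0.34, adjusted p = 0.00375) and Hsp90aa1 had a log2 fold change of 1.82 ± 0.4 (adjusted p = 0.00819). Hspa1a, the inducible HSP70, spread too widely to pass, from 1.7, 28, 164 and 2.93 CPM in FF_TAC to 179, 478, 580.4 and 268 in KO_TAC (log2 fold change 2.94 ± 1.49, adjusted p = 0.191), and it has a near-identical copy, Hspa1b. The heat shock count was 2 without FF_TAC 1, FF_TAC 4, KO_TAC 2 or KO_TAC 3 and 7 without KO_TAC 1. Exons of Manf, Pdia3 and Hspa1a overlap genes on the other strand, and those of Manf also one on the same strand.

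**Figure D5:**
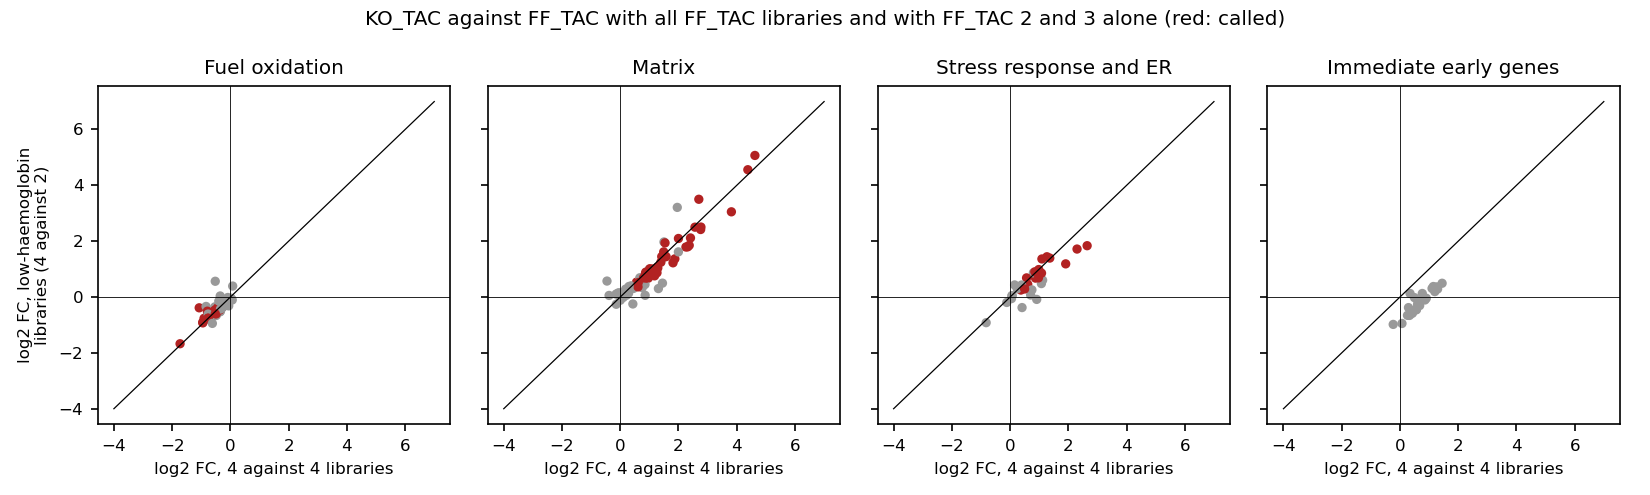
Log2 fold change of KO_TAC against FF_TAC within the low-haemoglobin libraries (4 against 2, vertical axis) against that over all 4 and 4 libraries (horizontal axis), each point a gene of the named lists, red where called; the diagonal marks equal values. Immediate early genes lie below the diagonal, around 0 on the vertical axis. Within the low-haemoglobin libraries the list median was -0.45 for the carnitine shuttle (-0.78 over all) and -0.57 for beta-oxidation (-0.57). It was 0.52 for crosslinking enzymes, proteases and inhibitors (0.80), 1.3 for the matricellular list (1.5) and 0.54 for the integrated stress response (0.89).

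Immediate early genes did not separate the groups. Of 24 tested, 0 were called by edgeR, also with the haemoglobin term, and the unadjusted p was under 0.05 for 1. By DESeq2 and limma voom with sample weights, 0 and 10 were higher. Within the low-haemoglobin libraries 16 of the 24 lay below 0. Fos, which cells switch on within minutes of a stimulus, was at 1.53, 144, 259 and 2.37 CPM in FF_TAC and 688, 104, 39.9 and 163 in KO_TAC (log2 fold change 1.29 ± 1.67, adjusted p = 0.629). Egr1, another such factor, was at 17.7, 714, 957 and 19.8 CPM in FF_TAC and 879, 536, 412 and 694 in KO_TAC (log2 fold change 0.56 ± 1.27, adjusted p = 0.789). FF_TAC 2 and 3 lay with the knockouts and only FF_TAC 1 and 4 were low. The same held for inflammatory ligands: Il6 was at 0, 42.7, 35.1 and 0 CPM in FF_TAC and 108, 27.8, 60.3 and 86.7 in KO_TAC (log2 fold change 1.87 ± 1.65, adjusted p = 0.464), Il1b at 0.438, 101, 64.6 and 0.718 CPM in FF_TAC and 80.7, 173, 179 and 127 in KO_TAC (log2 fold change 1.75 ± 1.38, adjusted p = 0.406), Cxcl1 at 1.59, 710.3, 1112 and 2.54 CPM in FF_TAC and 416, 744, 757 and 1053 in KO_TAC (log2 fold change 0.7 ± 1.56, adjusted p = 0.786) and Ccl2 at 2.85, 314, 395 and 3.64 CPM in FF_TAC and 143, 286, 573 and 570.1 in KO_TAC (log2 fold change 1.14 ± 1.21, adjusted p = 0.548).

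Some inflammatory genes did pass the test. Of 22 cytokine and acute inflammatory genes 8 were called higher and 0 lower (median 1.53), 4 with the haemoglobin term and 4 without FF_TAC 1, FF_TAC 4 or KO_TAC 3. It was 4 with KO_TAC 1 and 4 alone and 2 with only the 8 compared libraries in the fit. The median was 0.76 with the haemoglobin term, 0.67 within the low-haemoglobin libraries and 5.33 without the low-haemoglobin controls, where 16 were called higher. Acod1, which makes itaconate in activated macrophages, was at 0.0548, 1.51, 3.37 and 0.0552 CPM in FF_TAC and 4.8, 16, 32.4 and 35 in KO_TAC (log2 fold change 4.16 ± 0.91, adjusted p = 0.00828). Il1rn was at 0.219, 1.39, 1.41 and 0.0552 CPM in FF_TAC and 8.77, 4.35, 12.5 and 8.86 in KO_TAC, again with FF_TAC 2 and 3 above the other controls. Il11, a cytokine of the interleukin 6 family that acts on fibroblasts, had a log2 fold change of 2.42 ± 0.6 (adjusted p = 0.015), 3.69 without FF_TAC 3. Lcn2, an iron-binding acute phase protein, was high in KO_TAC 2 and 3 alone, at 4.38, 2.83, 1.23 and 4.2 CPM in FF_TAC and 3.09, 36.5, 30.1 and 3.21 in KO_TAC (log2 fold change 2.51 ± 0.72, adjusted p = 0.031), and its call was lost without FF_TAC 1, FF_TAC 2, FF_TAC 3, FF_TAC 4, KO_TAC 2 or KO_TAC 3 (adjusted p up to 0.0969).

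Of 25 chemokines and receptors 4 were called higher and 1 lower (median 1.11). Ccl5, which draws T cells and monocytes, was at 0.438, 4.58, 5.33 and 0.607 CPM in FF_TAC and 5.54, 20, 30.9 and 35.5 in KO_TAC (log2 fold change 3.08 ± 0.7, adjusted p = 0.00984). Ccl9 had a log2 fold change of 1.68 ± 0.3 (adjusted p = 0.00254), and Cxcl10, an interferon-induced chemokine, 3.24 ± 0.99 (adjusted p = 0.0409), lost without FF_TAC 1, FF_TAC 4, KO_TAC 3 or KO_TAC 4 (adjusted p up to 0.11). The gene called lower was Cxcl12, which vessels and stroma make, at 242, 116, 114 and 244 CPM in FF_TAC and 80.4, 95.4, 79.5 and 69 in KO_TAC (log2 fold change -1.14 ± 0.23, adjusted p = 0.00558). The count of higher genes was 2 without FF_TAC 1, FF_TAC 4, KO_TAC 3 or KO_TAC 4, 8 without KO_TAC 1 and 7 without FF_TAC 2. T cell markers were low in all 8 libraries, with summed levels of at most 4.7 CPM. Neutrophil markers summed to 1.41 to 2.9 CPM in FF_TAC and 2.5 to 6.33 in KO_TAC. Of the 2 that were tested, Csf3r, a receptor for a granulocyte growth factor, was called higher (log2 fold change 1.38 ± 0.33, adjusted p = 0.0134), also with the haemoglobin term but not without FF_TAC 4 or KO_TAC 3 (adjusted p up to 0.0588). Of 8 macrophage markers 4 were called higher and 0 lower (0 with KO_TAC 1 and 4 alone), among them the complement chains C1qa (log2 fold change 0.86 ± 0.19, adjusted p = 0.00795) and C1qb (log2 fold change 0.89 ± 0.19, adjusted p = 0.00766). Their summed level was 202 to 224 CPM in FF_TAC and 284 to 366 in KO_TAC. In the sham hearts it was 173 to 231 CPM in FF_sham and 240 to 431 in KO_sham, also without overlap. The part of macrophages in the inflammatory genes was not tested.

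Interferon-stimulated genes were uneven among the knockouts. Of 15 genes 6 were called higher and 0 lower (median 1.01). Ifit1, which binds viral RNA, was at 6.74, 10.7, 14.2 and 12.4 CPM in FF_TAC and 21.5, 30.3, 157 and 186 in KO_TAC (log2 fold change 3.16 ± 0.56, adjusted p = 0.00262), and Isg15, a ubiquitin-like protein, at 4.87, 14.2, 15.6 and 7.23 CPM in FF_TAC and 13.3, 25.9, 84.2 and 68 in KO_TAC (log2 fold change 2.2 ± 0.49, adjusted p = 0.00916). KO_TAC 3 and 4 were the high libraries for both, and KO_TAC 1 was nearest to the controls. The count was 3 without FF_TAC 1, FF_TAC 3, KO_TAC 3 or KO_TAC 4, and 4 with the haemoglobin term. Exons of Il1b and Cxcl10, named above, overlap genes on the other strand.

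Some endothelial and pericyte markers were lower, while all 5 smooth muscle markers lay above 0 with 0 called (median 0.88). Of 9 endothelial markers 4 were called lower and 0 higher (median -0.45), and of 5 pericyte markers 4 were (median -0.67). Kdr, the main receptor for vascular endothelial growth factor, was at 232, 133, 152 and 245 CPM in FF_TAC and 98.8, 55.1, 61.4 and 83.3 in KO_TAC (log2 fold change -1.35 ± 0.24, adjusted p = 0.00263). Tie1, a receptor of endothelium, had a log2 fold change of -0.5 ± 0.11 (adjusted p = 0.00854). Pecam1, a general endothelial marker, did not pass, at 179.7, 180.4, 169 and 187 CPM in FF_TAC and 209, 179, 155 and 155 in KO_TAC (log2 fold change -0.034 ± 0.13, adjusted p = 0.877). Abcc9 and Kcnj8, the subunits of the potassium channel of pericytes that ATP closes, had a log2 fold change of -1.08 ± 0.22 (adjusted p = 0.005) and -0.99 ± 0.22 (adjusted p = 0.00925), and Abcc9 is also a channel subunit of cardiomyocytes. The endothelial count was 2 without FF_TAC 1, FF_TAC 4 or KO_TAC 3, and 2 with the haemoglobin term. Of 19 neurohormonal genes 3 were called higher and 3 lower, with 5 lower without KO_TAC 1. Agtr1a, the angiotensin receptor, was at 42.3, 36.3, 36.3 and 38.7 CPM in FF_TAC and 19.5, 20, 18.4 and 29.3 in KO_TAC (log2 fold change -0.82 ± 0.13, adjusted p = 0.00183), while Ace, which makes angiotensin II, had a log2 fold change of 0.73 ± 0.15 (adjusted p = 0.00628). Grk5, a kinase that silences adrenergic receptors, was at 45.6, 38.5, 37.4 and 37.4 CPM in FF_TAC and 67, 88.7, 104 and 77.4 in KO_TAC (log2 fold change 1.09 ± 0.16, adjusted p = 9.91e-04). Exons of Abcc9 and Ace overlap genes on the other strand.

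Antioxidant and metal-binding genes were higher in part. Of 18 genes 8 were called higher and 0 lower (median 0.41), 5 with the haemoglobin term and 4 without FF_TAC 4. Mt1 and Mt2, the metallothioneins, had a log2 fold change of 1.44 ± 0.28 (adjusted p = 0.004) and 2.68 ± 0.48 (adjusted p = 0.00274), and Mt1 was at 87, 96.4, 102 and 66 CPM in FF_TAC and 168, 395, 252 and 135 in KO_TAC. Hmox1, which degrades haem, had a log2 fold change of 1.74 ± 0.43 (adjusted p = 0.0149), and its call was lost without FF_TAC 4 (adjusted p up to 0.0571). Exons of Mt2 overlap a gene on the other strand. Of 11 retinoic acid genes 4 were called higher and 1, Cyp26b1, lower. Aldh1a3, which makes retinoic acid, had a log2 fold change of 1.08 ± 0.25 (adjusted p = 0.0114). The count of higher genes there was 2 without FF_TAC 1, FF_TAC 3, FF_TAC 4 or KO_TAC 1. Of 16 proliferation genes 0 were called by edgeR, 2 had an unadjusted p under 0.05, DESeq2 called 0 lower and voom 6, and 14 were below 0 (median -0.63). Without the low-haemoglobin controls that median was 0.32, with 10 genes above 0 and 2 called higher, and with KO_TAC 1 and 4 alone it was -0.025, with 8 above and 8 below 0.

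With only the 8 compared libraries in the fit, counts of other lists moved as well. Among fuel genes 2 of the carnitine shuttle, 6 of beta-oxidation, 2 of the regulators, 3 of the PPAR targets, 1 of triglyceride storage and 0 of the nuclear respiratory chain were called lower. Of glucose use 3 were higher and 3 lower, and of fatty acid uptake 0 were higher. In muscle lists there were 3 hypertrophy and fetal genes higher, 2 calcium genes lower and 0 sarcomere genes lower or higher. Called higher were 11 matricellular genes, 1 heat shock protein, 2 chemokine genes, 1 interferon-stimulated gene, 5 antioxidant genes, 2 retinoic acid genes, 2 fibroblast markers and 1 neurohormonal gene. Of the vessel markers 1 endothelial and 0 pericyte ones were lower.

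With KO_TAC 1 and 4 alone, 3 carnitine shuttle genes, 2 regulators, 1 sarcomere gene, 1 endothelial marker and 2 pericyte markers were called lower, and 5 nuclear respiratory chain genes. That fit keeps KO_TAC 1, whose trend with exon length is opposite to that of KO_TAC 2 and 3. Called higher were 2 hypertrophy and fetal genes, 3 of glucose use, 0 of fatty acid uptake and 1 heat shock protein. The same fit called 2 chemokine genes, 4 antioxidant genes, 2 retinoic acid genes and 1 neurohormonal gene higher. Without the low-haemoglobin controls 8 hypertrophy and fetal genes, 7 heat shock proteins, 15 immediate early genes and 13 chemokine genes were called higher. So were 2 fibroblast markers and 2 retinoic acid genes. Of neurohormonal genes 5 were then higher and 6 lower. The haemoglobin term left 2 triglyceride genes lower, and 0 fatty acid uptake genes, 2 fibroblast markers and 2 retinoic acid genes higher.

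The fit also asked whether the knockout changed a gene more after TAC than after sham. For 7 of 15596 genes (0.0449%) this interaction passed, while 2049 had an unadjusted p under 0.05. Vat1, a membrane protein linked to mitochondrial fusion, was at 38.1, 40.7, 42.5 and 36.2 CPM in FF_TAC and 76, 77.5, 91.4 and 72.9 in KO_TAC, with sham means of 42.1 ± 2.66 in FF_sham and 44.3 ± 2.77 in KO_sham (± SD, n = 4). The interaction was 0.94 ± 0.13 on the log2 scale, adjusted p = 0.0344. Ecm1, extracellular matrix protein 1, was at 30.6, 33, 40 and 29 CPM in FF_TAC and 88, 95, 106 and 69.7 in KO_TAC, with sham means of 36.1 ± 5.54 and 41.5 ± 4.54 (1.24 ± 0.21 on the log2 scale, adjusted p = 0.0493). Map1a, a microtubule-associated protein, was at 7.34, 5.6, 8.15 and 9.99 CPM in FF_TAC and 22.7, 26.4, 30.1 and 22.2 in KO_TAC (1.73 ± 0.28 on the log2 scale, adjusted p = 0.0493), and Slc37a1, a sugar phosphate exchanger, at 9.8, 9.4, 12.6 and 10.6 CPM in FF_TAC and 18.9, 17.6, 19.7 and 16.4 in KO_TAC (1.03 ± 0.17 on the log2 scale, adjusted p = 0.0493). Each of these 4 was above every one of the other 12 libraries in all KO_TAC libraries.

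The other 3 were below every one of the other 12 libraries in all KO_TAC libraries. Eepd1, a nuclease-like protein, was at 29.6, 26.9, 25 and 24.1 CPM in FF_TAC and 12, 11.3, 10.9 and 11.6 in KO_TAC, with sham means of 26.9 ± 3.31 and 22.5 ± 1.7 (-0.95 ± 0.14 on the log2 scale, adjusted p = 0.0493). Helt, a transcription factor of low level, was at 1.48, 1.57, 1.65 and 1.33 CPM in FF_TAC and 0.196, 0.225, 0.0556 and 0.297 in KO_TAC (-3.01 ± 0.48 on the log2 scale, adjusted p = 0.0493). Nt5c1a, a nucleotidase that makes adenosine, was at 4.76, 1.08, 2.02 and 4.09 CPM in FF_TAC and 0.686, 0.375, 0.222 and 0.476 in KO_TAC, with sham means of 1.78 ± 0.456 and 3.25 ± 0.232 (-3.59 ± 0.57 on the log2 scale, adjusted p = 0.0493). All adjusted p-values lie close to the threshold, and 0 interactions were called with the haemoglobin term or without FF_TAC 1, FF_TAC 4, KO_TAC 2 or KO_TAC 3, against 215 without KO_TAC 1 and 102 without KO_TAC 4. Cpt1a had an interaction of -0.39 (adjusted p = 0.727). For the genes described above that are not among these 7, a difference between the effect of the knockout after TAC and after sham was tested and did not pass. Exons of Vat1, Map1a and Slc37a1 overlap genes on the other strand, and those of Ecm1 a gene on the same strand.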

How the data were processed

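Poly(A)-selected, stranded RNA-seq libraries of mouse hearts were deposited by the authors as 1 table of whole-number counts per Ensembl gene and library, not normalized. The submitters' processing notes name HISAT2 2.1.0, featureCounts, Subread 1.5.1 and the build GRCm38; their roles, the strand setting and the annotation release are not given in the sources used here. Of 55487 gene identifiers, 55227 matched a symbol in GENCODE M21, and those without one held 0.00336% of counts.

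From the deposited counts, edgeR 4.0.16 (R 4.3.3) was fitted over the 16 libraries of the floxed cohort with TMM scaling, its filter on low counts, 1 mean per group and quasi-likelihood F tests, with Benjamini-Hochberg adjustment over all genes tested (threshold 0.05). Log2 fold changes come from this fit, and every adjusted p is from it unless another fit is named. The script was tested on simulated counts. Per-library CPM use the same scaling, except for the haemoglobin levels. No pair of libraries of a group agreed within sampling noise (chi-square per degree of freedom 15.4 to 158). Genes were named by rule: Cpt1a, the 15 largest rises and falls among called genes whose groups do not overlap and whose higher mean is 5 CPM or more, the genes of the interaction, and members of 32 pathway and 19 marker lists; some of these are not reported here. Members, lists and rule were chosen with earlier results of these data known. Alternatives were RLE scaling, DESeq2 1.42.0, voom with sample weights (limma 3.58.1), other filters, a replicate block, the 8 libraries alone, haemoglobin settings, haemoglobin and mitochondrial genes left out before scaling, and each library left out. Fits without the low-haemoglobin controls, with Myl7 as covariate, with the length trend removed and with KO_TAC 1 and 4 alone were chosen after seeing the data. Gene coordinates are those of GENCODE M21, and promoter sequences those of RefSeq on GRCm38.p6.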

Additional observations from a re-analysis of the deposited data

Results flagged for a closer look

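Among 370 sets of 4 libraries checked for 185 named genes, 17 had 1 library far from the other 3, and chance gives about 1 in 20. In FF_TAC, replicate 1 stood apart for Nppb (low, at 149.7 CPM), Bgn (low, at 199 CPM), Pfkfb1 (high, at 20.0 CPM), Grk5 (high, at 45.6 CPM) and Serpina3n (high, at 21.3 CPM). Replicate 2 of FF_TAC did so for Sucla2 (high, at 692 CPM), Ltbp3 (low, at 49.4 CPM) and Pycr1 (low, at 1.27 CPM), and replicate 3 for Pfkm (high, at 1240.5 CPM), Dbt (low, at 55.7 CPM) and Hspa1a (high, at 164 CPM). In KO_TAC, replicate 1 stood apart for Gm13054 (high, at 41.3 CPM, with the next library at 4.65) and Kcnv2 (high, at 3.23 CPM), and replicate 2 for Pycr1 (low, at 1.95 CPM). KO_TAC 3 did so for Atf5 (high, at 122 CPM), and KO_TAC 4 for Col4a1 (high, at 764 CPM) and Agtr1a (high, at 29.3 CPM).

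The knockout effect after TAC differed from that after sham, by edgeR's test of the interaction, for 7 genes. It was larger after TAC for Vat1 (by 0.94 on the log2 scale, adjusted p = 0.0344), Slc37a1 (by 1.03), Ecm1 (by 1.24) and Map1a (by 1.73). It was more negative for Eepd1 (-0.95), Helt (-3.01) and Nt5c1a (-3.59), and the adjusted p was 0.0493 for each gene but Vat1.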

How the results depend on the processing

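Of 160 named genes called, 160 kept their call with RLE scaling and 159 of 159 with DESeq2. The haemoglobin term kept 137, the 8 libraries alone 95, the length trend removed 159, KO_TAC 1 and 4 alone 113, and single libraries left out 135 to 157. Within the low-haemoglobin libraries (4 against 2) 0 passed, and all 160 kept their direction. Those libraries are the same 4 KO_TAC and 2 of the 4 FF_TAC libraries. For genes whose groups do not overlap the direction could therefore hardly turn, and nothing is concluded from it. The count of called genes (2235) was 6002 with voom, 557 with the 8 libraries alone, 1127 with the haemoglobin term, 0 in the low-haemoglobin libraries, 3630 without the low-haemoglobin controls, 1076 with KO_TAC 1 and 4 alone, and 1124 to 3845 with 1 library left out. The interaction count (7) was 369 with DESeq2, 2930 with voom, 17 without a filter, 2 at a mean of 5 CPM or more, 0 with the haemoglobin term, 605 without the low-haemoglobin controls, 25 with Myl7 as covariate, 17 with the length trend removed, 0 with KO_TAC 1 and 4 alone, and 0 to 215 with 1 library left out. The log2 fold change of Cpt1a (-1.07) missed the threshold with the 8 libraries alone (-1.09), the haemoglobin term (-1.0), the low-haemoglobin libraries (-0.39) and KO_TAC 1 and 4 alone (-0.96), and ran from -0.73 to -1.28 with 1 library left out. It was -1.55 without the low-haemoglobin controls. The causes were not tested.

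Among genes that had not passed, signs turned as follows. With the haemoglobin term the log2 fold change was -0.12 for Pdk4, -0.10 for Atf3, -0.41 for Egr1 and -0.020 for Cxcl1, and in the low-haemoglobin libraries -0.047 for Pdk4, -0.085 for Atf3, -0.43 for Egr1 and -0.32 for Cxcl1. Pnpla2 was 0.15 with voom, and -0.15 to 0.085 with 1 library left out. Acta1 was 0.28 with voom, 0.078 with the replicate block, 0.78 without the low-haemoglobin controls, 0.028 with Myl7 as covariate, and -0.43 to 0.26 with 1 library left out. Fos was -0.24 with Myl7 as covariate and -0.0017 to 2.34 with 1 library left out. Pecam1 was 0.025 with the length trend removed, 0.026 with KO_TAC 1 and 4 alone, and -0.15 to 0.015 with 1 library left out. Lcn2, called, was -0.0085 with KO_TAC 1 and 4 alone.

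Deviations of same-numbered libraries from their group means correlated at 0.45, 0.24, 0.14 and -0.02, and KO_TAC 3 and 4 correlated best with another number, so the numbers were not taken as pairs. With the replicate block 2123 genes and 19 interactions were called, and Cpt1a was -1.04 and missed the threshold. Counts of 14839758 to 18473879 per library leave genes of under 1 CPM, such as Helt in KO_TAC, on few reads.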

Other observations

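Counts for the clock and for lipid synthesis stand beside 6.8% called lower and 7.53% called higher over all genes. Of 18 clock genes 2 were called lower and 0 higher in KO_TAC (median log2 fold change -0.2), the count of lower genes was 0 without FF_TAC 1, FF_TAC 4, KO_TAC 2 or KO_TAC 3 and 4 without FF_TAC 2 or KO_TAC 4, and 0 were lower with the haemoglobin term, with KO_TAC 1 and 4 alone or with only the 8 compared libraries in the fit. Without the low-haemoglobin controls 3 were higher and 4 lower. Of 19 genes of sterol and fatty acid synthesis 3 were called lower and 0 higher (median 0.04). Of 7 cardiomyocyte markers 2 were called lower and 0 higher (median -0.3), and 1 was lower without any one of FF_TAC 1, 3 or 4 or KO_TAC 2, 3 or 4, and 0 with the haemoglobin term or with only the 8 compared libraries in the fit. Smooth muscle markers had 0 of 5 called by edgeR, with 3 at an unadjusted p under 0.05, 1 called higher by DESeq2 and 1 by voom. All 5 lay above 0 (median 0.88), and without KO_TAC 1 3 lay above and 2 below. B cell markers summed to 0.602 to 2.87 CPM in FF_TAC and 0.178 to 19.2 in KO_TAC. No cause of these values was tested.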
